A study of Mus musculus with 9 samples.

Results

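The cytokines by which dendritic cells and the lymphocytes around them direct T cell differentiation were followed in the deposited arrays through 9 genes: Il12a, Il12b, Il15, Il18, Il10, Tgfb1, Il4, Il13 and Ifng. They were chosen by name, as every probe set whose gene symbol in the platform annotation is one of the 9, out of 8388 genes with a single symbol on either array design. All 9 genes are present on both designs, with 14 probe sets on each. Of these probe sets 13 have the same name on both designs, while Il15 is read by a different one on each, so that 15 probe sets were followed in all. Il4 has 5 probe sets and Il10 has 2 on each design, and 1 probe set of each of these genes is an Affymetrix control. Probe sets of 1 gene are not independent measurements of it.

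The study measured RNA of day 10 dendritic cells on 9 arrays, 3 from cells labelled CIITA-/-, 3 from cells labelled IAb-/- and 3 from wild-type B6 cells. CIITA switches on transcription of MHC class II, and IAb is the I-A beta chain, whose gene is H2-Ab1. Day, cell type and genotype are all that the labels give: mouse age, culture conditions, and whether an array stands for 1 mouse, a pool or a separate culture, are not given in the sources used here, so the p-values rest on a spread between arrays that may be technical only. The titles number experiments 1 to 3, 1 array per group in each. The title of 1 CIITA-/- array has no number, and 2 was assigned to it because the other arrays of its group hold 1 and 3. Experiment 1 was run on one array design (12654 probe sets) and experiments 2 and 3 on another (12488 probe sets), so levels were compared only within a design.

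Interleukin 12, a heterodimer of the p35 chain encoded by Il12a and the p40 chain encoded by Il12b, drives naive T cells towards the interferon gamma producing Th1 fate, and interleukin 18 amplifies it. Interleukin 15 sustains NK cells and memory CD8 T cells and is presented to them bound to its own receptor chain on the dendritic cell. Interleukin 10 and TGF-beta 1 restrain T cells, and TGF-beta 1 also takes part in the induction of regulatory and Th17 cells. Interleukins 4 and 13 are the cytokines of the Th2 fate and interferon gamma that of Th1. Lymphoid cells such as T and NK cells, and for interleukins 4 and 13 also mast cells and basophils, are their best known sources.

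Promoters are shown for the single gene whose transcript was measured well (Tgfb1), for the only one called between groups (Il13) and, beside them, for Il12b and Ifng of the Th1 axis. Il12a and Il18, also of that axis, are not shown, and their windows hold no TATA letters. Each sequence is the 250 bases before the annotated start, 5′ to 3′ on the strand of the gene, from RefSeq on build GRCm38.p6. The windows are chr7:25686752-25687001 on the plus strand for Tgfb1, chr11:53634703-53634952 on the minus strand for Il13, chr11:44399813-44400062 on the plus strand for Il12b and chr10:118440796-118441045 on the plus strand for Ifng. Capitals mark TATAAA or TATATA on the gene strand within the last 50 bases before the start, and GGGCGG on either strand anywhere in the window.
Tgfb1: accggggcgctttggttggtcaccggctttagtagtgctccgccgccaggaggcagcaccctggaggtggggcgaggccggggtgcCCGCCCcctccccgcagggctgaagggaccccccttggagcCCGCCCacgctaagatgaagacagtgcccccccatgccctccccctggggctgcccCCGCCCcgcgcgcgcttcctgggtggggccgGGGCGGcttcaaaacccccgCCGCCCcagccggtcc
Il13: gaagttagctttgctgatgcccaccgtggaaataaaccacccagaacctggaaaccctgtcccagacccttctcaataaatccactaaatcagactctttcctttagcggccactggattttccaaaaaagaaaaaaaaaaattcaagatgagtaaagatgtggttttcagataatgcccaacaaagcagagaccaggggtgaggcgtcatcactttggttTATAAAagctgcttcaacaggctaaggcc
Il12b: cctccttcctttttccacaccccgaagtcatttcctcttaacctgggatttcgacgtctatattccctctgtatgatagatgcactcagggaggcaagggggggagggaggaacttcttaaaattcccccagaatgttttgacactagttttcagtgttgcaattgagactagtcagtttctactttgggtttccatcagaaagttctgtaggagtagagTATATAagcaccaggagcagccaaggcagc
Ifng: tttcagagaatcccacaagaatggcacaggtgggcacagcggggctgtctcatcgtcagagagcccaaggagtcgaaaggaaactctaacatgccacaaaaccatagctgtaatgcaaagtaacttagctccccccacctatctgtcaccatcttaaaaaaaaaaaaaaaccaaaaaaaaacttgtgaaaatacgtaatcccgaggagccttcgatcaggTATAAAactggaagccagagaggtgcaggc
The Tgfb1 window holds 5 matches to GGGCGG, none to the TATA letters, and 75.2% G and C, more than 96.1% of the 32851 promoters of the table. The windows of Il13, Il12b and Ifng hold the TATA letters, no GGGCGG, and 43.2%, 46% and 45.2% G and C. RefSeq promoters were matched for 7 of the 9 genes, and 4 of them (Il12b, Il4 at one of its starts, Il13 and Ifng) have the TATA letters in the last 50 bases, against 3.67% of all promoters of the table. GGGCGG lies in 32.7% of all promoters, and in a promoter of 3 of the 7 genes (Tgfb1, Il4 and Il12a). These matches describe the letters of the windows only.

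Because the files hold no detection calls, a noise limit was taken from the values below 0, which make up 21% to 26.4% of each array. It was set at the 95th percentile of how far they lie below 0, 1701 in the table of experiments 2 and 3 and 2203 in that of experiment 1, and it is a limit for the table as a whole rather than for any probe set. The genes of the labels were read first. H2-Aa, the class II alpha chain, gave -1893, -1520 and -2254 on the CIITA-/- arrays of experiments 1, 2 and 3, and 33825 to 53578 on B6 arrays. Ciita lay under the limit on all 9 arrays, with 1822, 1601 and 1639 on CIITA-/- arrays, 1224, 398 and 644 on IAb-/- arrays, and 1045, 623 and 933 on B6 arrays, so that it was not lower on the CIITA-/- array in any experiment. H2-Ab1 was under the limit on CIITA-/- arrays (675, 615 and 112), as was H2-Aa. H2-Ab1 gave 30749, 16070 and 9621 on the arrays labelled IAb-/-, against 44048, 17261 and 21348 on B6 arrays. Whether the Ciita and H2-Ab1 probes fall inside what was deleted could not be established, so neither gene checks the label that names it. Of 9 dendritic cell markers 8 were above the limit on all 6 arrays of experiments 2 and 3, among them the integrin Itgax, the migration receptor Ccr7 and the maturation molecules Cd83 and Cd86, with Cd80, Flt3, Batf3 and Fscn1. Some markers of other cell types were also above it on both arrays of at least 1 group: Pax5, Cd79b and Ms4a1 of B cells, Cd68, Cd14 and Csf1r of macrophages, and Cxcr2, Camp and Ly6g of neutrophils. Their part in the results was not tested.

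Of the 9 cytokine genes, only Tgfb1 had a signal above noise in these cells. Its probe set was above the limit on all 9 arrays, and no probe set of the other 8 genes reached the limit on any array, as was so for 60.1% of all probe sets in experiments 2 and 3 and 66.6% in experiment 1. In the table of experiments 2 and 3 that makes 1 of 14 probe sets above the limit on every array, where 29.7% of all probe sets that are not controls were. In the table of experiment 1 it was again 1 of 14, against 26.5% of all. The other 13 probe sets ran from -893 to 744 over 78 values in experiments 2 and 3, of which 27 were below 0, and from -787 to 1806 over 39 values in experiment 1, of which 18 were below 0. These values do not show that the transcripts were absent. They show that no level could be told from noise at this sensitivity.

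**Figure D1:**
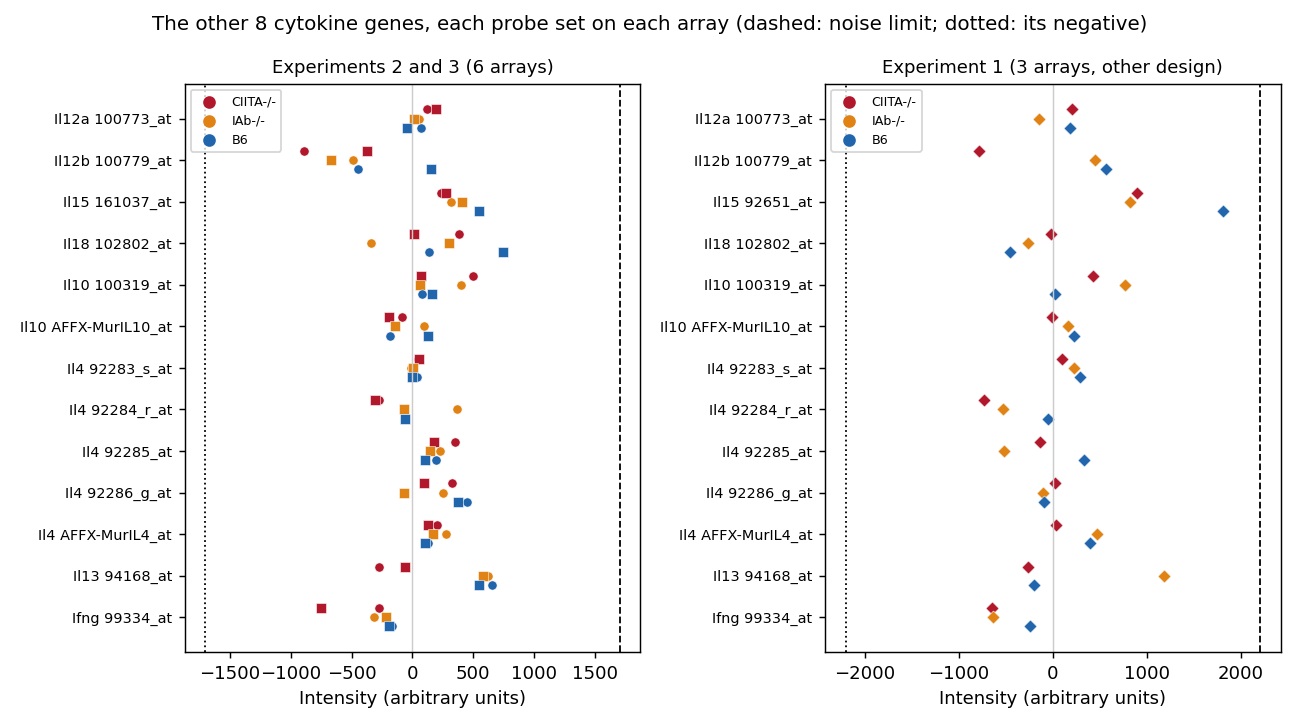
Intensity (x axis, arbitrary units) of each probe set of the 8 genes other than Tgfb1, with 1 point per array (circles experiment 2, squares experiment 3, diamonds experiment 1) coloured by group. Every point lies left of the dashed noise limit (1701 and 2203), and the points of most probe sets lie on both sides of 0.

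Tgfb1 encodes the TGF-beta 1 precursor, which is cut to a latent complex and released later by integrins or proteases. In experiments 2 and 3 its probe set gave 10718 and 10875 on CIITA-/- arrays, 12700 and 10207 on IAb-/- arrays, and 10032 and 7356 on B6 arrays. Both B6 values lay below all 4 values of the mutant groups, and the CIITA-/- and IAb-/- values overlapped. Of all probe sets, 18.4% were higher without overlap in CIITA-/- than in B6, and 15.9% in IAb-/- than in B6. Experiment 1 gave 20705 on the CIITA-/- array, 22308 on the IAb-/- array and 26220 on the B6 array, so there B6 was the highest. All 9 values were between 4.32 and 11.9 times the noise limit of their table, and between the 88.4th and the 97.3rd percentile of their array.

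**Figure D2:**
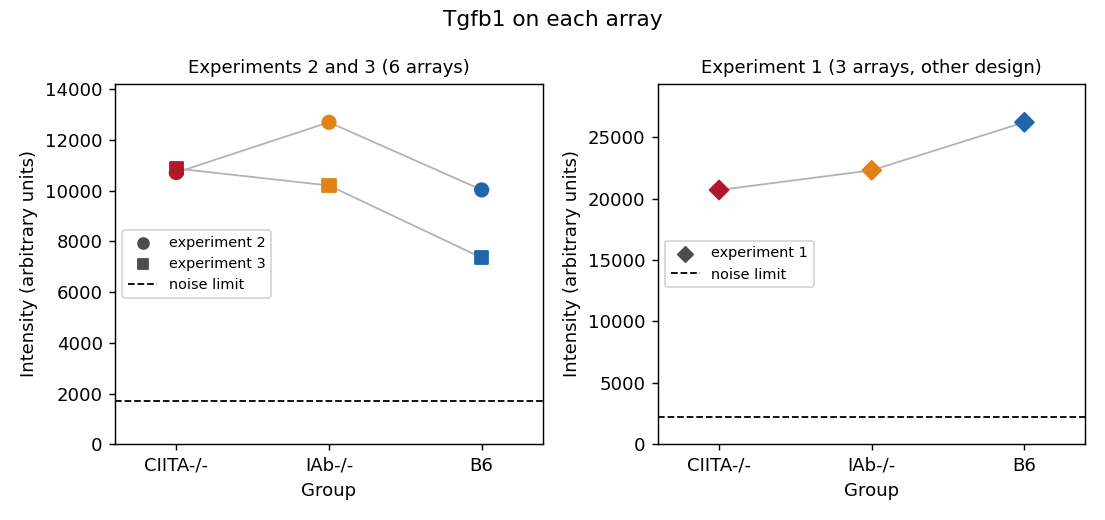
Intensity of the Tgfb1 probe set (y axis, arbitrary units, from 0) in each group, 1 point per array, with grey lines joining the arrays of an experiment and the noise limit dashed. B6 is the lowest in experiments 2 and 3 (10032 and 7356) and the highest in experiment 1 (26220).

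No group difference of Tgfb1 passed the test. Mean levels were 10797 ± 111 in CIITA-/-, 11454 ± 1763 in IAb-/- and 8694 ± 1892 in B6 cells (SD, n = 2 arrays each, experiments 2 and 3). CIITA-/- against B6 had a log2 difference of 0.33 (SE 0.22, limma adjusted p = 0.93), with a 95% interval of the fold of 0.842 to 1.88. IAb-/- against B6 had one of 0.41 (SE 0.22, limma adjusted p = 1, interval of the fold 0.888 to 1.98). Between CIITA-/- and IAb-/- the log2 difference was -0.08 (SE 0.22, limma adjusted p = 1, interval of the fold 0.635 to 1.42). Without the B6 array of experiment 3, the lowest of the 6, the log2 differences of CIITA-/- and IAb-/- from B6 were 0.11 and 0.18.

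Within experiments the sign of the Tgfb1 difference was not the same throughout. The log2 difference of CIITA-/- from B6 was -0.34 in experiment 1, 0.10 in experiment 2 and 0.56 in experiment 3. That of IAb-/- from B6, against the same B6 arrays, was -0.23, 0.34 and 0.47. The spike-in control Cre varied between arrays. Its 3′ probe set read 140310 on the IAb-/- array of experiment 2, where Tgfb1 was also highest, and 78903 on that of experiment 3. In experiments 2 and 3 Cre read 108986 and 106954 on CIITA-/- arrays, and 96031 and 93949 on B6 arrays. CIITA-/- was thus higher than B6 in both, as for Tgfb1. In experiment 1 Cre read 39176 on the CIITA-/- array, 46506 on the IAb-/- array and 38846 on the B6 array, where Tgfb1 was highest. Its part in the Tgfb1 values was not tested. With quantile normalization the log2 differences from B6 were 0.32 and 0.40. In bulk RNA of this kind, fewer expressing cells and less RNA per cell cannot be told apart.

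The genes closest to Tgfb1 over the 6 arrays were sought among the named ones of the 3691 other probe sets above the limit on all of them, by the root mean square difference of log2 values centred on each probe set's mean. They were Sec11c (0.063), a subunit of the signal peptidase complex, Manf (0.064), a secreted factor of the endoplasmic reticulum, and Ass1 (0.074), which makes argininosuccinate. Tgfb1's own centred profile had a root mean square of 0.24, against a median of 0.14 over all 3692. In experiment 1 Manf read 6005 on the CIITA-/- array, 5800 on the IAb-/- array and 5664 on the B6 array, so its order there was the reverse of that of Tgfb1. Ass1 gave 7583, 9870 and 9561, with the CIITA-/- array lowest, as for Tgfb1, but the IAb-/- array highest. The Sec11c probe set is not on the design of experiment 1.

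Il13 was the only member called in any comparison, and its call rests on values under the noise limit. In experiments 2 and 3 its probe set gave -278 and -63.6 on CIITA-/- arrays, 622 and 578 on IAb-/- arrays, and 650 and 550 on B6 arrays. The CIITA-/- values lay below 0 and apart from those of the other groups, which overlapped. Experiment 1 gave -263 on the CIITA-/- array, 1187 on the IAb-/- array and -199 on the B6 array, so that here the B6 array also lay below 0. CIITA-/- was thus the lowest group in all 3 experiments, and its distance from B6 was -64.4 units of intensity in experiment 1, -928.2 in experiment 2 and -613.5 in experiment 3. Of the probe sets on both designs, 13.5% were lower in CIITA-/- than in B6 in all 3 experiments, and 12.4% lower than in IAb-/-.

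For the test, a floor of 124 was used (the 30th percentile of the whole table), and the fit took in probe sets that exceed the floor on 2 or more arrays, including 7 of the 12 member probe sets that are not controls. Il13 had a log2 difference of -2.28 in CIITA-/- against B6 (SE 0.15, limma adjusted p = 0.044), 1 call among the 7 tested, where 0.0966% of all 9312 probe sets tested were called, 0.0752% as lower. Both CIITA-/- values lie under that floor, so their spread counts as 0 and the log2 value gives no size. No fold is given, since both groups lie under the noise limit. The call was lost in every alternative but the lower floor and quantile normalization. It had an adjusted p of 0.57 with log2(value + 1701), 0.06 without the filter on dim probe sets, and 0.203 to 0.442 when any 1 of the 6 arrays was left out. With the noise limit as the floor Il13 could not be tested. Against IAb-/-, CIITA-/- had the same log2 difference of -2.28 without passing (limma adjusted p = 0.078), and IAb-/- against B6 had 0.00 (adjusted p = 1).

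None of the 8 measured T cell markers, 6 NK cell markers or 9 mast cell and basophil markers reached the limit on any array. The summed intensity of the mast cell and basophil list ran from -2052 to -1683 on CIITA-/- arrays, from -1971 to 116 on IAb-/- arrays and from -1665 to -1428 on B6 arrays. A single Cma1 probe set at -3627 to -2497 carries these sums, which without it were 1561 to 1580 in CIITA-/-, 1656 to 2613 in IAb-/- and 1408 to 1527 in B6. That of the T cell list ran from -2151 to -1098 in CIITA-/-, -1343 to -1188 in IAb-/- and -1836 to -473 in B6, or 139 to 1003, 615 to 889 and -36.4 to 836 in the same order without its lowest probe set, of Cd3e. The part of such cells in the Il13 values was not tested. The NK cell list summed to 418 to 693 on CIITA-/- arrays, 158 to 458 on IAb-/- arrays and -521 to 54.7 on B6 arrays. Without its lowest probe set, of Klrk1, the sums were 993 to 1082, 632 to 1013 and 59.3 to 679 in the same order. CIITA-/- and B6 do not overlap in these sums, which are made of values under the limit. IAb-/- and B6 overlap only without Klrk1. Of all single probe sets, 37.9% had no overlap between CIITA-/- and B6.

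Il15 was lower in both mutant groups than in B6 in each of the 3 experiments, through 2 different probe sets, always under the noise limit. In experiments 2 and 3 Il15 gave 235 and 278 on CIITA-/- arrays, 315 and 411 on IAb-/- arrays, and 544 and 547 on B6 arrays. The groups do not overlap, and CIITA-/- was lowest. No overlap was seen for 37.9% of all probe sets in CIITA-/- against B6 and 32.2% in IAb-/- against B6. In CIITA-/- against IAb-/- it was 26.4%. Of the probe sets on both designs, 13.5% were lower in CIITA-/- than in B6 in all 3 experiments, and 13.6% in IAb-/-. In experiment 1 the other Il15 probe set gave 901 on the CIITA-/- array, 825 on the IAb-/- array and 1806 on the B6 array. The B6 value is under the limit of 2203 but above the limit of 1504.5 that the 90th percentile would give.

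The differences of Il15 did not pass over all probe sets. CIITA-/- against B6 had a log2 difference of -1.09 (SE 0.20, unadjusted p = 0.0032, limma adjusted p = 0.48), and IAb-/- against B6, with the same B6 arrays, one of -0.60 (SE 0.20, unadjusted p = 0.031, limma adjusted p = 1). An unadjusted p under 0.05 was reached by 5.86% and 4.31% of all probe sets tested in these comparisons, and by 4.54% in CIITA-/- against IAb-/-. The log2 difference of CIITA-/- from IAb-/- was -0.49 (SE 0.20, limma adjusted p = 1). With log2(value + 1701), a sum that compresses dim values, the differences from B6 were -0.20 and -0.12.

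**Figure D3:**
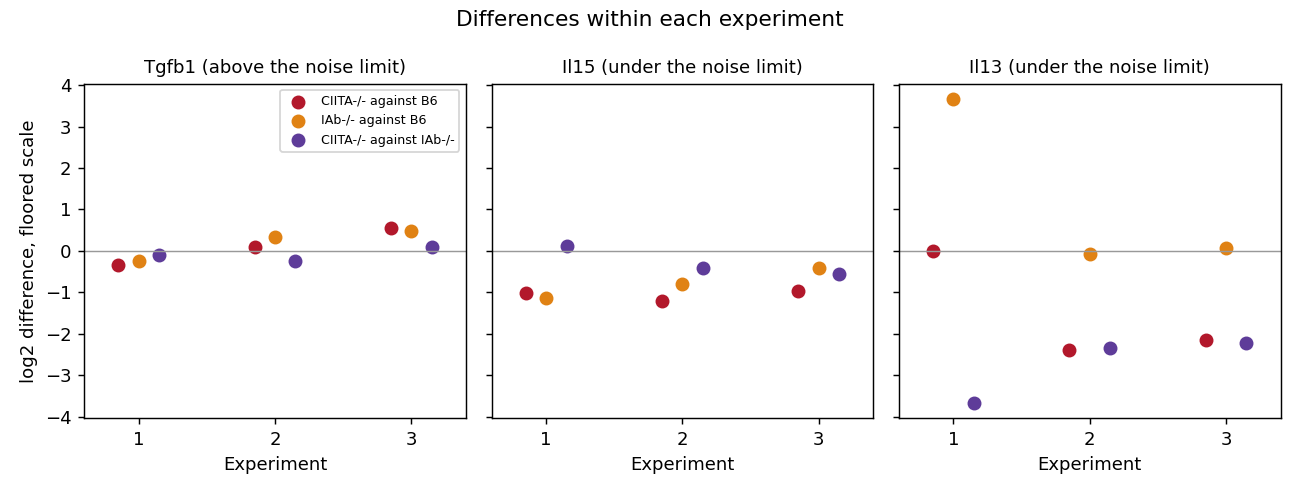
Log2 difference (y axis, values floored at 124 or, in experiment 1, at 93.2) of Tgfb1, Il15 and Il13 within experiments 1, 2 and 3, coloured by comparison. Tgfb1 changes sign between experiment 1 and the others, Il15 is below 0 against B6 in all 3, and Il13 in CIITA-/- against B6 is 0 in experiment 1, where both arrays lie under the floor.

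The chains of interleukin 12 were not measurable in any group. Il12b, the p40 chain shared with interleukin 23, gave -893 and -374 on CIITA-/- arrays, -489 and -668 on IAb-/- arrays, and -443 and 156 on B6 arrays in experiments 2 and 3. The arrays of experiment 1 gave -787, 446 and 570 in the same order of groups. Values above 0 were thus 0 of 3 in CIITA-/-, 1 of 3 in IAb-/- and 2 of 3 in B6. Il12a, the p35 chain, gave 117 and 194 on CIITA-/- arrays, 57.9 and 15.7 on IAb-/- arrays, and 72.7 and -42.5 on B6 arrays. Its values in experiment 1 were 204, -146 and 189, and with the IAb-/- array lowest the order of the mutants was that of experiments 2 and 3. Neither probe set was above the floor on the arrays needed for the test.

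Il18, whose product is stored as a precursor and cut by caspase 1, was within noise as well. It gave 384 and 11.8 on CIITA-/- arrays, -337 and 302 on IAb-/- arrays, and 134 and 744 on B6 arrays, and the groups overlap. Experiment 1 gave -18.7, -265 and -453, with the B6 array lowest. Its log2 differences from B6 were -0.54 in CIITA-/- and -0.71 in IAb-/- (SE 1.06 each, limma adjusted p = 0.96 and 1).

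For Il10, the probe set that is no control gave 502 and 73 on CIITA-/- arrays, 396.5 and 59.1 on IAb-/- arrays, and 82.8 and 159 on B6 arrays. Experiment 2 was the higher of the 2 in both mutant groups, and the groups overlap. Experiment 1 gave 431, 769 and 29, with both mutant arrays above B6, as in experiment 2 but not in experiment 3. The log2 differences from B6 were 0.83 and 0.66 (SE 0.88 each, limma adjusted p = 0.93 and 1), and without the array of experiment 2 of the mutant group each was -0.18. The control probe set of Il10 ran from -193 to 132 in experiments 2 and 3 and from -9.9 to 227.5 in experiment 1.

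The 5 probe sets of Il4 did not move together. In CIITA-/- against B6 the 2 that could be tested had log2 differences of opposite sign, 0.68 (SE 0.46) for the plain probe set (suffix at) and -1.03 (SE 0.58) for the one with the suffix g, with limma adjusted p = 0.93 for both. In IAb-/- against B6 they had 0.22 and -1.22 in the same order (limma adjusted p = 1 for both). The suffix g probe set gave 325 and 96.2 on CIITA-/- arrays, 248 and -71.4 on IAb-/- arrays, and 448.5 and 374 on B6 arrays, but 20.3, -106 and -88.5 in experiment 1, where B6 was not the highest. The plain probe set gave 353 and 175 on CIITA-/- arrays, 224 and 146 on IAb-/- arrays, and 195 and 106 on B6 arrays, and -138, -523 and 328 in experiment 1, with B6 highest only there. Of the 3 probe sets that were not tested, the one with the suffix s ran from -11.7 to 50.3 in experiments 2 and 3, the one with the suffix r from -311 to 366 and the control from 107 to 274. No direction was thus shared by the Il4 probe sets, and all lay under the limit.

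Ifng, at the other pole of T cell differentiation, was below 0 on all 9 arrays: -272 and -750 on CIITA-/- arrays, -315 and -218 on IAb-/- arrays and -169 and -193 on B6 arrays, and -648, -631 and -237 in experiment 1.

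Counted over the 12 member probe sets that are not controls, 8 had no overlap between CIITA-/- and B6 in experiments 2 and 3, where 37.9% of all probe sets had none. Of the 8, 5 were lower in CIITA-/- (19.5% of all) and 3 higher (18.4%). All of the 8 but Tgfb1 lay under the noise limit, and Il4 gave more than 1 of them, in both directions. In IAb-/- against B6, 5 of 12 had no overlap, against 32.2%, and in CIITA-/- against IAb-/- 5 of 12, against 26.4%. Of the 11 member probe sets on both designs, 4 had a lower intensity in CIITA-/- than in B6 in all 3 experiments, against 13.5% of the 9977 shared probe sets, and 1 a higher one, against 13.2%. The 4 are those of Il12b, Il13, Ifng and 1 of Il4, all under the noise limit. In IAb-/- 3 were lower than in B6 throughout, against 13.6%, and 0 higher, against 12.6%. In CIITA-/- against IAb-/- 2 were lower throughout, against 12.4%, and 3 higher, against 11.5%. No member was called in IAb-/- against B6, where 0.0107% of all probe sets were, or in CIITA-/- against IAb-/-, where 0.0215% were (limma). At an unadjusted p under 0.05 (limma) there was 1 of 7 in each of these comparisons. It was Il15 in IAb-/- against B6, where 4.31% of all probe sets tested had one. In CIITA-/- against IAb-/- it was Il13, beside 4.54% of all. In CIITA-/- against B6 there were 2 of 7, Il13 and Il15, beside 5.86% of all. Both CIITA-/- values of Il13 were set to the floor in the fit, so their spread counts as 0 in both of its comparisons.

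Of 16 receptor chains on the array of experiments 2 and 3, 4 (25%) had a probe set above the limit on all 6 arrays: Il10rb, Il4ra, Ifngr1 and Ifngr2. Counted by probe set it was 4 of 18, where 29.7% of all probe sets were above it. Il4ra, the chain that binds interleukin 4 and serves interleukin 13 as well, was at 11414 ± 639 in CIITA-/-, 12016 ± 1025 in IAb-/- and 10928 ± 95 in B6 cells (SD, n = 2 each) by one of its probe sets. The other read 279 to 446, 302 to 309 and 326.5 to 452 in the same order, under the limit. Il10rb, the shared signalling chain of the interleukin 10 receptor, was at 19019 ± 2246, 20820 ± 537 and 19355 ± 718 in the same order. Its ligand-binding partner Il10ra gave 1733 and 1755 on CIITA-/- arrays, the only group with both above the limit, 1945.5 and 906 on IAb-/- arrays, and 1492 and 1377 on B6 arrays. In experiment 1, however, Il10ra was above the limit only on the B6 array (2834, against 2113 on the CIITA-/- and 2080 on the IAb-/- array). None of the 14 receptor probe sets tested was called by limma in any comparison, and 2, 0 and 1 had an unadjusted p under 0.05 in CIITA-/- against B6, IAb-/- against B6 and CIITA-/- against IAb-/-. Their median log2 difference was 0.01 in CIITA-/- against B6 and -0.09 in IAb-/- against B6, beside 0.01 for all probe sets tested in each.

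Of 18 signal transducers 14 (77.8%) were above the limit on all 6 arrays. The 8 with the highest mean levels were the kinases Jak1 and Jak2, the transcription factors Stat3, Stat5a and Stat6, the inhibitors Socs1 and Socs3, and the adaptor Traf6. Of the list's 24 probe sets 0 were called by limma in any comparison or had an unadjusted p under 0.05. Stat6, which carries the interleukin 4 signal, was at 7796 ± 772 in CIITA-/-, 8808 ± 150 in IAb-/- and 8507 ± 626 in B6 cells. Socs3, an inhibitor induced by cytokines, varied within B6 more than between groups: the probe set present on both designs gave 10487 and 6138.5 on CIITA-/- arrays, 10004 and 6626 on IAb-/- arrays and 10443 and 2662 on B6 arrays. A second Socs3 probe set gave 12304 and 7741 on CIITA-/- arrays, 11088.5 and 9331 on IAb-/- arrays, and 14143 and 4539 on B6 arrays. Experiment 1 gave, for the first, 11398, 8660 and 20068, with the B6 array highest, as for Tgfb1. In experiment 3 both Socs3 and Tgfb1 were lowest on the B6 array.

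Of 11 genes for processing, partners and inhibitors of these cytokines 5 (45.5%) had a probe set above the limit on all 6 arrays: Itgav, Ebi3, Furin, Casp1 and Ltbp3. Counted by probe set it was 6 of 15, beside 29.7% of all probe sets. Furin, the protease that cuts the TGF-beta 1 precursor, was at 7066 ± 501 in CIITA-/-, 6911 ± 76 in IAb-/- and 6539 ± 575 in B6 cells. In experiment 1 it read 13486 and 14462 against 18414.5 in B6, so Furin had the order of groups of Tgfb1 in that experiment. Itgav, the integrin alpha V chain that helps to release active TGF-beta, had log2 differences from B6 of -0.06 and -0.08 by the first of its 2 probe sets above the limit and of -0.37 and -0.30 by the second, while its other probe set lay under the limit. Ltbp3, which holds latent TGF-beta in the matrix, had 0.23 and 0.29. Casp1, which cuts the interleukin 18 precursor, was at 3430 ± 266 in CIITA-/-, 3621 ± 922 in IAb-/- and 3678 ± 179 in B6 cells. Ebi3, which pairs with the p35 chain or with p28, was at 11093 ± 1367, 14235 ± 1610 and 12773 ± 1871 in the same order by one probe set, while the other lay under the limit at -289 to 126, -323 to -250 and -507.5 to -374. Of the 11 probe sets of this list tested, 0 were called by limma or had an unadjusted p under 0.05 in any comparison.

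**Figure D4:**
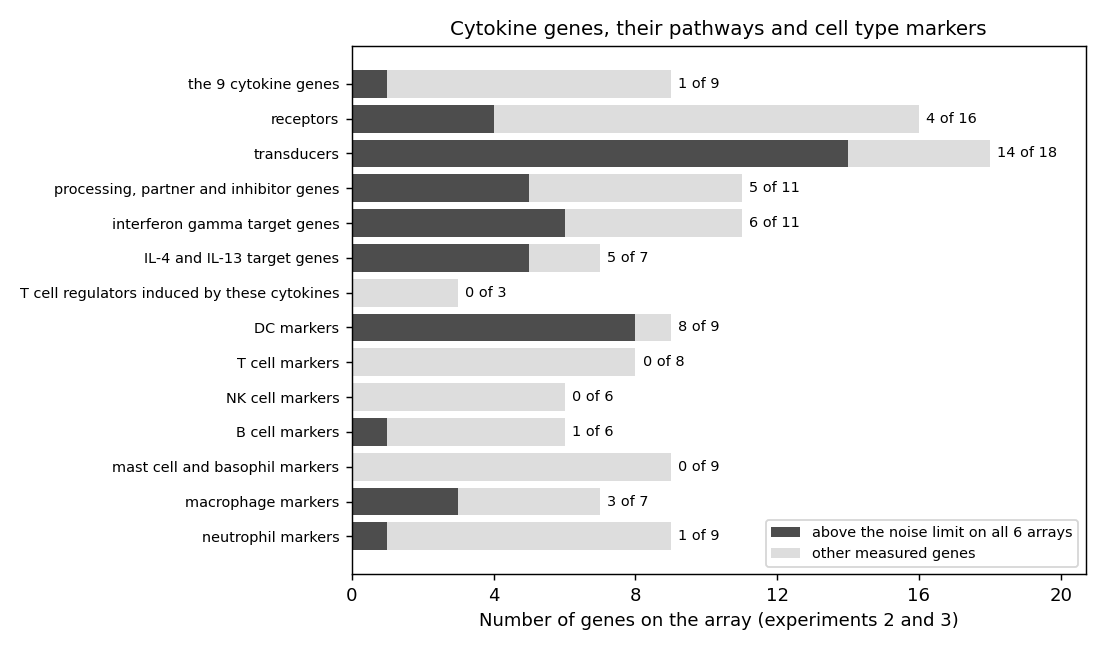
Number of genes (x axis) of the 9 cytokines, of their pathway lists and of the cell type marker lists on the array of experiments 2 and 3, with the dark part of each bar showing those above the noise limit on all 6 arrays. Among the cytokines it is 1 of 9, among transducers 14 of 18, and among T cell, NK cell and mast cell markers 0.

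Target genes of interleukins 4 and 13 were measured in every group although Il4 and Il13 themselves lay within noise. Of 7 such genes 5 were above the limit on all 6 arrays: Ccl17 and Ccl22, chemokines that attract CCR4-bearing T cells, Chil3, a chitinase-like protein, Socs2, a signalling inhibitor, and the arginase Arg1. Ccl17 was at 159004 ± 1931 in CIITA-/-, 160619 ± 54902 in IAb-/- and 138054 ± 4989 in B6 cells. In experiment 1 it was at 22478 and 26796.5 against 20288 in B6. The IAb-/- arrays of experiments 2 and 3 read 199441 and 121797, and the Cre spike was also higher on the array of experiment 2. Cre was higher on both CIITA-/- arrays than on both B6 arrays too. Its part was not tested. Of the 7, 0 were called by limma or had an unadjusted p under 0.05. Their median log2 difference from B6 was 0.18 in CIITA-/- and 0.13 in IAb-/-, beside 0.01 for all probe sets tested in each. Both medians are values of Mrc1, which read -28.6 to 299.9 in experiments 2 and 3, under the limit. Over the 5 genes above the limit the medians were 0.20 and 0.16. In experiment 1 Mrc1 read 4769.5 on the CIITA-/- array, 2565.2 on the IAb-/- array and 8050.7 on the B6 array. All of these lie above the limit of that experiment. The log2 differences of Mrc1 from B6 were there -0.76 and -1.65, while those 5 genes were higher in both mutants than in B6. These genes have other inducers too, and the culture conditions are not given in the sources used here.

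Of 11 interferon gamma target genes 6 were above the limit on all 6 arrays: Irf8, Gbp2, Icam1, Socs1, Gbp3 and Irf1. Irf1, the transcription factor that heads this response, was at 3970 ± 1073 in CIITA-/-, 3254 ± 439 in IAb-/- and 5391 ± 130 in B6 cells. Its log2 differences from B6 were -0.47 (limma adjusted p = 0.93) and -0.73 (unadjusted p = 0.031, limma adjusted p = 1), but 0.51 and -0.20 in experiment 1. None of the 10 tested was called by limma, and Irf1 in IAb-/- against B6 was the only one with an unadjusted p under 0.05. In that comparison 4.31% of all probe sets tested had one. The T cell regulators on the array, Gata3, Eomes and Maf, are named outside the rule for named genes, after their values were seen. They were under the limit on all arrays.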

How the data were processed

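Transcript levels of day 10 dendritic cells were measured on 9 Affymetrix arrays. The deposited intensity values are on a linear scale, and how the authors computed them from the scans is not stated in the labels. Values below 0 were kept by them. Array medians lie between 685.75 and 718.3 in the table of 6 arrays and between 656.1 and 744.3 in the other, so no further scaling was done. The number of arrays limits the precision.

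Gene symbols are those of the platform annotation. Of the 12488 and 12654 probe sets, 10833 and 10276 that are not controls have 1 symbol, 396 and 363 several and 1193 and 1949 none, and those with several were left unnamed. The 66 controls per design, 2 of them member probe sets, stayed out of the fit.

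In the 6-array table values were floored at the 30th percentile, log2 was taken, and 9312 probe sets above the floor on at least 2 arrays were fitted with limma 3.58.1 in R 4.3.3, all groups together (lmFit, eBayes). Calls are at a Benjamini-Hochberg adjusted p under 0.05. The fit was tested on simulated data. Experiment 1 gave within-experiment differences only. The main fit did not take the experiment numbers as pairs. Same-numbered arrays of experiments 2 and 3 deviated from their group means with correlations of 0.048, 0.079 and 0.21. These were taken over all 9312 probe sets, many of them under the noise limit, so they cannot show that pairing is absent. With an experiment block in the 6 arrays, 0 probe sets were called in each comparison. Alternatives were the floor, the transformation, the filter, quantile normalization, an experiment block and leaving out each array.

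The members, gene lists and tests were chosen with earlier results of these data known. The rule names all members, list genes called or above the limit on every array of a group (up to 8 per list by mean level), and the 3 profiles closest to Tgfb1. Genes outside it, such as Cma1, Cd3e and Gata3, were named after their values were seen.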

Additional observations from a re-analysis of the deposited data

How the results depend on the processing

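The count of 1 member probe set above the noise limit on every array held with other limits. These were the 90th percentile, the 99th percentile and a limit set for each array. With the 90th percentile, 1504.5 in experiment 1, Il15 exceeded the limit on the B6 array of that experiment (1806). Of 252 alternative values of member log2 differences, 221 kept sign and side of the threshold, 10, all of Il13 in CIITA-/- against B6, lost the call, and 21 changed sign. The Il13 values were -0.59 with the started log, -1.52 with the replicate block over 9 arrays and -2.40 to -2.15 without any 1 array. The sign changes were all of uncalled values. Without 1 array, ranges in CIITA-/- against B6 were -1.77 to 0.70 for Il18 and -0.18 to 1.84 for Il10. In IAb-/- against B6 they were -1.95 to 0.53 for Il18, -0.18 to 1.5 for Il10, -0.11 to 0.55 for the plain Il4 probe set and -0.12 to 0.12 for Il13. In CIITA-/- against IAb-/- they were -0.64 to 0.99 for Il18, -0.84 to 1.18 for Il10, -0.23 to 0.081 for Tgfb1, -0.044 to 0.97 for the plain Il4 probe set and -0.50 to 0.89 for the suffix g one. Quantile normalization gave -0.012 for Il13 in IAb-/- against B6. The replicate block over 9 arrays gave -0.15 (CIITA-/-) and -0.46 (IAb-/-) against B6 for the plain Il4 probe set and -0.17 for Il10 in CIITA-/- against IAb-/-. The cause of these changes was not tested.

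Counts of called probe sets over the whole table were small and moved with the setting. CIITA-/- against B6 had 9 calls, and 3 with the noise limit as floor, 4 with the started log, 14 without the filter, 0 with the replicate block (606 at an unadjusted p under 0.05, limma), 4 with that block over 9 arrays, and 0 to 1 without any 1 array. IAb-/- against B6 had 1 call, and 0, 0, 5, 0 and 0 in the same order (214, 347, 559, 491 and 385 at an unadjusted p under 0.05, limma), 3 with quantile normalization, and 0 to 0 without any 1 array (274 to 810 unadjusted). CIITA-/- against IAb-/- had 2, and 4, 1, 7 and 0 in the same order up to the block in 6 arrays (492 unadjusted with that block), and 0 to 1 without any 1 array. Under the replicate block Il13 kept -2.28 in CIITA-/- against B6 with an adjusted p of 0.201. A lone array left in a group was assumed to vary like the others. A level under 1701 (2203 in experiment 1) could not be told from noise, which limits every statement on members other than Tgfb1.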
